A study of Sus scrofa with 6 samples.

Results

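Matrix proteases and their inhibitors are given here as 9 genes of 6765 named genes on the Porcine Genome Array. They are the matrix metalloproteinases MMP1, MMP2, MMP9 and MMP14, the aggrecanase-family protease ADAMTS1, the urokinase gene PLAU, and the tissue inhibitors of metalloproteinases TIMP1, TIMP2 and TIMP3. Every probe set whose only gene symbol in the platform annotation is 1 of these names was taken, which gave 13 of 23999 probe sets, and all 9 genes had at least 1. Their measured values were not used to choose them, although they were put together with earlier results of these data known. TIMP3 has 3 probe sets, TIMP2 and ADAMTS1 have 2 each, and the others have 1.

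RNA came from the left ventricular (LV) free wall of Large White piglets, a commercial breed with no stated genetic change, and each array held 1 animal. The Dox group (n = 3) was given 1 intravenous dose of doxorubicin, an anthracycline that damages heart muscle, at 2.0 mg/kg, and the PBS group (n = 3) was given phosphate-buffered saline in its place. Injection was at 8 days of age and the hearts were taken 3 weeks later, from animals labelled as 28 days old. The study's methods state a slightly different schedule and a range of doses, so the exact dose of each animal is not settled here. The tissue was whole LV wall from a model of a single exposure, and the question was which of these genes differ between the failing and the control LV.

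The matrix of the heart is a mesh of collagens, fibronectin and proteoglycans made largely by fibroblasts. Matrix metalloproteinases are made as inactive proenzymes, are activated by other proteases, and cut these proteins, whereas TIMPs bind the active enzymes and block them. MMP1 cuts fibrillar collagen, MMP2 and MMP9 are the gelatinases that digest cut collagen and basement membrane, and MMP14 sits in the cell membrane, where it activates MMP2 with the help of TIMP2. ADAMTS1 cuts proteoglycans such as versican, and urokinase turns plasminogen into plasmin, a protease that can in turn activate metalloproteinases. The balance of these enzymes and inhibitors is a standard subject in heart remodelling. An array reads their messenger RNA, and says nothing of how much enzyme is active.

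The values are MAS5 probe set signals, linear brightness units that the authors scaled to a common trimmed mean. Probe sets differ in how brightly they answer, so a signal is compared between arrays and never between genes. A signal at or below the highest of the 17 synthetic Tag controls of its own array, which lay between 2.5 and 6.3, is called within the Tag range, where a level cannot be told from background. Differences are Dox minus PBS on the log2 scale of the signals, from limma over all 6 arrays, and a call needs an adjusted p up to 0.05 over 23999 probe sets and a fold of 2 or more. For a gene with several probe sets, the one with the highest mean log2 signal is read. The others are given beside it for the 9 genes, and only in part for genes of the wider lists.

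Some arrays stood apart. Dox replicate 3 had a median correlation of 0.885 with the other arrays over the brighter probe sets, against 0.937 to 0.955 for the rest. Dox replicate 1 had the highest 3′ to 5′ signal ratio of actin, an index of RNA quality, at 6.04, followed by Dox replicate 2 at 3.96, while the other arrays lay between 1.96 and 2.63. The tissue label was checked with 11 cardiomyocyte markers, and all 10 of them with a probe set lay above the Tag range on every array. TNNC1, cardiac troponin C, whose mean signal was the highest on that list, read 5999, 6908 and 7079 in PBS and 8037, 7252 and 9539 in Dox. The median log2 difference over all probe sets was -0.10, and it was -0.004 after quantile and -0.001 after loess normalization.

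None of the 9 genes was called by limma, and neither was any of the 23999 probe sets (0%). At their brightest probe sets 8 genes had a log2 difference above 0, beside 2979 of the 6765 named genes. TIMP2 alone had one below 0. The median over the 9 genes was 0.50, and over the 7 genes that lay above the Tag range on every array it was 0.28, against -0.07 over all named genes. The median of the 9 dropped to 0.16 if Dox replicate 3 was left out and reached 0.79 if Dox replicate 1 was. A weaker rule, called here the unadjusted limits, takes p values up to 0.05 before adjustment together with a fold of 2 or more. At these limits 1 gene (MMP9) was higher in Dox, beside 2.00% of all probe sets, and 0 were lower, beside 3.65%. The groups did not overlap for 1 gene, again MMP9 and higher in Dox, beside 6.19% of all probe sets, and for 0 in the lower direction, beside 10.1%.

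**Figure D1:**
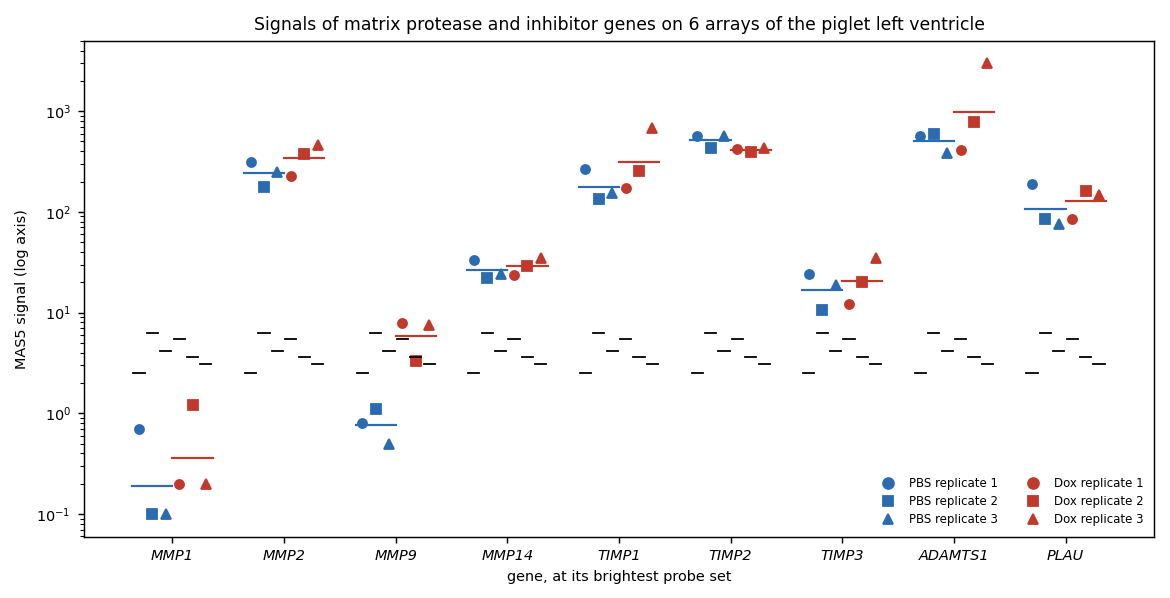
MAS5 signal on a log axis for each of the 9 genes at its brightest probe set, with 1 point per array, coloured lines at the geometric mean of the 3 PBS and the 3 Dox arrays, and short black dashes at the highest Tag control of each array. MMP1 lies below its dashes on all 6 arrays, MMP9 is the gene whose groups separate, and ADAMTS1 and TIMP1 are highest on Dox replicate 3.

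The gelatinase MMP2 read 315.5, 178.6 and 248.7 in PBS and 225.6, 379.7 and 459.2 in Dox. Dox replicates 2 and 3 were above every PBS array, while Dox replicate 1 lay among the PBS values, so that the groups overlapped. The mean signal was 248 ± 68.5 (SD, n = 3) in PBS and 355 ± 119 (SD, n = 3) in Dox. The log2 difference was 0.50 with an SE of 0.31, a 95% interval from -0.22 to 1.21 and an adjusted p of 0.61 (limma), and the exact two-sided permutation test gave p = 0.3, where 0.1 is the smallest that 3 arrays against 3 can give. Leaving out 1 array moved it between 0.28 (Dox replicate 3) and 0.79 (Dox replicate 1).

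MMP9, the gelatinase that neutrophils store in granules, read 0.8, 1.1 and 0.5 in PBS and 7.8, 3.3 and 7.6 in Dox. Every Dox array was above every PBS array, but all 3 PBS values and that of Dox replicate 2 lay within the Tag range. The measured means were 0.80 ± 0.30 (SD, n = 3) and 6.23 ± 2.54 (SD, n = 3). The fitted log2 difference was 2.93 with an SE of 0.66 and an adjusted p of 0.521 (limma). With 4 of 6 values not told from background, no fold is read, and the size of the fitted difference rests on those dim values. With 16 added to every signal, which damps dim values, it was 0.40, and with each signal raised to the highest Tag signal of its array it was 0.56.

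Neutrophil marker genes, like MMP9, were higher in the Dox group. Of the 9 markers listed, 4 had a probe set, namely the calprotectin genes S100A8 and S100A9, S100A12, and the granule protein lactoferrin (LTF). All 4 were higher in Dox at the unadjusted limits, beside 2.00% of all probe sets, with groups that did not overlap and adjusted p-values of 0.521 (limma). With Dox replicate 2 left out 3 of them were, beside 1.65% of all probe sets. Their summed signal was 18.4, 19.1 and 31.5 in PBS and 78.2, 1017 and 261 in Dox. S100A9, with the highest mean signal, read 9.2, 7.8 and 27.5 in PBS and 56.9, 681.5 and 185.9 in Dox. S100A12 lay within the Tag range on 4 arrays, and S100A8 and LTF each did on 2 PBS arrays. No order of MMP9 within the Dox group is read, since its value on Dox replicate 2 lay within the Tag range and the others were close. Of the leukocyte markers, PTPRC, the pan-leukocyte antigen CD45, had 5 of 6 arrays within the Tag range, and the integrin gene ITGAM had 4. The macrophage receptor gene CD163, with the highest mean signal of the 7 leukocyte markers measured, read 190.3, 265.9 and 208.0 in PBS and 250.7, 459.2 and 299.8 in Dox, with overlapping groups. Of these 7 markers 3 had log2 differences above 0 and 4 below 0, with a median of -0.24 and 0 past the unadjusted limits. AIF1, chosen after its values were seen, read 97.2, 120.4 and 110.8 in PBS and 113.4, 68.2 and 45.0 in Dox. Its log2 difference was -0.63 (SE 0.34). The part of neutrophils in the MMP9 signal was not tested, and in whole tissue more cells of a type cannot be told apart from more RNA per cell.

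The membrane protease MMP14 read 33.6, 22.3 and 24.0 in PBS and 23.7, 28.8 and 34.9 in Dox. The groups covered nearly the same range. The log2 difference was 0.14 with an SE of 0.32, a 95% interval from -0.59 to 0.86 and an adjusted p of 0.898 (limma), and it was -0.0040 without Dox replicate 3. The interstitial collagenase MMP1 read 0.7, 0.1 and 0.1 in PBS and 0.2, 1.2 and 0.2 in Dox, within the Tag range on all 6 arrays. No difference is read from it.

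ADAMTS1 was far higher on Dox replicate 3 than on any other array. Its brightest probe set read 571.3, 596.6 and 386.1 in PBS and 409.0, 789.5 and 2990.4 in Dox. Dox replicate 1 lay among the PBS arrays and Dox replicate 2 above all of them. The other probe set ordered the Dox arrays alike, with 411.3, 412.1 and 288.7 in PBS and 283.0, 601.8 and 1755.4 in Dox. The log2 differences were 0.96 with an SE of 0.61 (95% interval -0.44 to 2.36) and 0.87 with an SE of 0.56, with adjusted p-values of 0.613 and 0.614 (limma). The exact permutation test at the brightest probe set gave p = 0.4. The difference at the brightest probe set was 0.16 with Dox replicate 3 left out and 1.59 with Dox replicate 1 left out, and in the latter case it passed the unadjusted limits (adjusted p = 0.224 by limma).

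PLAU, which encodes urokinase, read 188.2, 84.5 and 76.1 in PBS and 85.3, 162.0 and 148.7 in Dox. PBS replicate 1 was the highest array of all, and the groups overlapped. The log2 difference was 0.25 with an SE of 0.40, a 95% interval from -0.65 to 1.16 and an adjusted p of 0.843 (limma). With 1 array left out it ranged from 0.01, without PBS replicate 3, to 0.66, without PBS replicate 1, and it was 0.09 without PBS replicate 2, 0.08 without Dox replicate 2, 0.14 without Dox replicate 3 and 0.54 without Dox replicate 1.

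Among the inhibitors, TIMP1, which binds MMP9 and most other metalloproteinases, read 263.9, 133.1 and 153.2 in PBS and 174.4, 254.5 and 673.1 in Dox. Dox replicate 3 was the only Dox array above PBS replicate 1. The means were 183 ± 70.4 (SD, n = 3) and 367 ± 268 (SD, n = 3), and the SD in Dox was larger than the difference between the means. The log2 difference was 0.82 with an SE of 0.48, a 95% interval from -0.27 to 1.92 and an adjusted p of 0.59 (limma), and the exact permutation test gave p = 0.3. Leaving out Dox replicate 3 gave 0.27, and leaving out Dox replicate 1 gave 1.24, which passed the unadjusted limits (adjusted p = 0.265 by limma).

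TIMP2, which both inhibits metalloproteinases and takes part in the activation of MMP2 by MMP14, gave opposite signs at its 2 probe sets. The brighter one read 572.0, 427.2 and 563.4 in PBS and 424.2, 393.1 and 431.8 in Dox. All 3 Dox values were near the lowest PBS value, and the log2 difference was -0.31 with an SE of 0.18, a 95% interval from -0.73 to 0.11 and an adjusted p of 0.593 (limma). The other one read 373.4, 290.4 and 431.8 in PBS and 412.9, 326.1 and 684.3 in Dox. There the groups overlapped with Dox replicate 3 on top, and the log2 difference was 0.33 with an SE of 0.29 and an adjusted p of 0.708 (limma). The mean of both probe sets differed by 0.0069, so no direction is given for TIMP2.

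TIMP3, the inhibitor that stays bound to the matrix and blocks ADAMTS proteases as well, read 24.0, 10.7 and 18.7 in PBS and 12.1, 20.0 and 35.2 in Dox at its brightest probe set. The groups overlapped, and the log2 difference was 0.28 with an SE of 0.49 and an adjusted p of 0.865 (limma). It turned to -0.12 without Dox replicate 3 and to -0.05 without PBS replicate 2. A further probe set read 13.4, 9.8 and 10 in PBS and 8.0, 21.1 and 48.1 in Dox, with Dox replicate 1 below every PBS array and Dox replicate 3 the highest of all. Its log2 difference was 0.88 with an SE of 0.61 and an adjusted p of 0.636 (limma). The last one lay within the Tag range on all 6 arrays.

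**Figure D2:**
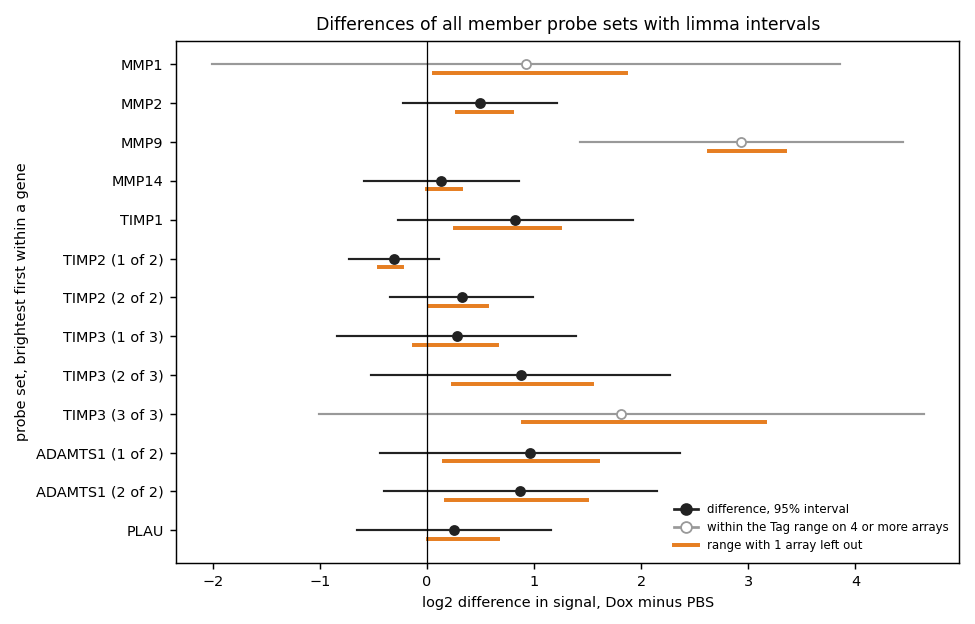
Log2 difference in signal, Dox minus PBS, of all 13 probe sets (points) with the 95% interval from limma (thin lines) and, in orange, the range of the difference when 1 array is left out. The intervals of the 10 probe sets that lie above the Tag range on every array hold 0, and open grey points mark the 3 probe sets within the Tag range on 4 or more arrays.

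Across the 7 genes above the Tag range on every array, the same arrays were often high or low. Dox replicate 3 gave the highest signal of all arrays in 5 of them, against 23.9% of all probe sets. PBS replicate 1 gave the highest of the PBS arrays in 6, against 37.3% of all probe sets. Dox replicate 1 gave the lowest of the Dox arrays in 6. The share of all probe sets was not counted for that, so it is not read as a trait of these genes. The genes share their 6 arrays, so these counts are a description of the libraries. All 7 intervals of the log2 difference held 0. For 5 of them the upper bound of the interval lay past a fold of 2, and for 0 the lower bound did, so higher levels of that size could not be told from no difference with 3 arrays a group.

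**Figure D3:**
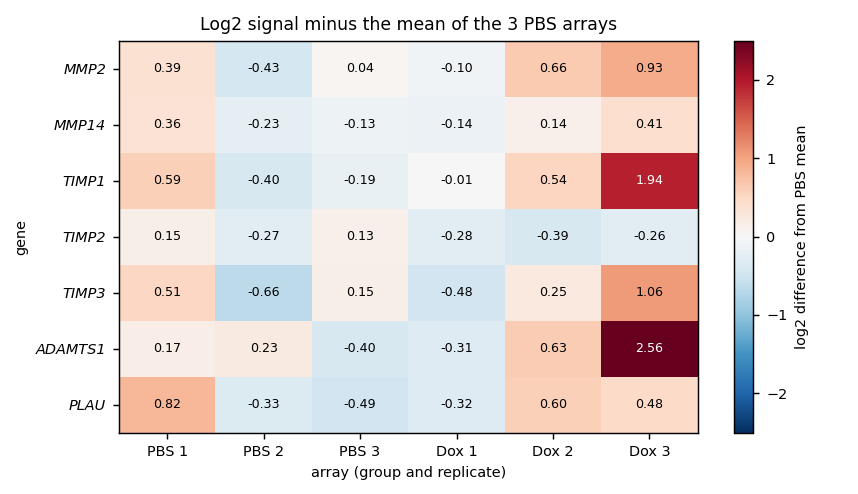
Log2 signal of the 7 genes above the Tag range on every array, minus the mean of the 3 PBS arrays, with 1 column per array and the value printed in each cell. Dox replicate 1 is below the PBS mean for all 7 genes, whereas Dox replicate 3 is above it for every gene but TIMP2 and reaches 2.56 for ADAMTS1.

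A protease and the inhibitor known to bind it were also set against each other on each array, and only the difference of their log2 ratio between groups is read. For MMP2 to TIMP2 the ratio was -0.86, -1.26 and -1.18 in PBS and -0.91, -0.05 and 0.09 in Dox. Dox replicates 2 and 3 lay above all PBS arrays and Dox replicate 1 among them. The difference was 0.81, with p = 0.2 in the exact permutation test, and it was 0.17 with the other TIMP2 probe set. For MMP14 to TIMP2 it was 0.45 (exact permutation p = 0.2) and turned to -0.19 with the other TIMP2 probe set. For ADAMTS1 to TIMP3 it was 0.68 (exact permutation p = 0.3) and 0.08 with the other TIMP3 probe set above the Tag range. None of these 3 ratios separated the groups. MMP9 to TIMP1 and MMP1 to TIMP1 are not read because the protease lay within the Tag range on 4 or more arrays.

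**Figure D4:**
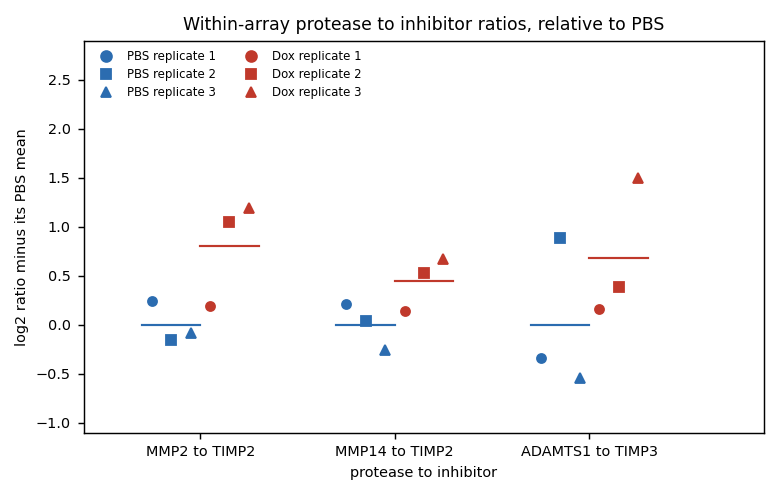
Log2 ratio of protease to inhibitor signal on each array, minus the mean ratio of the 3 PBS arrays, for the 3 pairs that could be read at the brightest probe sets, with lines at the group means. The Dox means lie 0.81, 0.45 and 0.68 above the PBS means, and points of both groups overlap in each pair.

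Wider lists place these genes among the rest of the pathway. Of 17 other metalloproteinases listed, 4 had a probe set, and the stromelysin MMP3, matrilysin MMP7, collagenase MMP13 and enamelysin MMP20 lay within the Tag range on all 6 arrays. Of 19 further ADAM and ADAMTS proteases 5 were measured, and all 5 had log2 differences below 0, with a median of -0.30. After quantile or loess normalization 3 of 5 did, with medians of -0.10 and -0.09. At the unadjusted limits 0 passed, and 1 was lower without Dox replicate 1, where 7.19% of all probe sets were. The sheddase ADAM9 read 46.7, 49.8 and 46.1 in PBS and 31.9, 34.9 and 32.9 in Dox, with no overlap. Its log2 difference was -0.52 with an SE of 0.25 and an adjusted p of 0.54 (limma), though another of its 4 probe sets gave 0.09. ADAMTS6 differed by -1.02 (SE 0.58), but by -0.40 without Dox replicate 3, and ADAM15 by -0.30 (SE 0.26), but by -0.18 without PBS replicate 1. The median of the 5 ran from -0.55 without Dox replicate 2 to -0.18 without PBS replicate 1. Whether ADAMTS1 and its relatives differ in direction was not tested.

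Of 10 genes of the plasminogen system 6 were measured, with a median log2 difference of 0.07 (-0.01 after loess normalization) and 0 past those limits in either direction. PLG, the plasminogen gene, lay within the Tag range on all 6 arrays, and over the other 5 genes the median was -0.09. The median of the 6 had no settled sign with 1 array left out, from -0.24 without Dox replicate 3 to 0.30 without PBS replicate 1. Leaving out PBS replicate 2, PBS replicate 3 or Dox replicate 1 also put it below 0. SERPINB2, the urokinase inhibitor PAI-2, read 341.4, 306.3 and 360.8 in PBS and 288.7, 278.1 and 1755.2 in Dox. It resembled ADAMTS1 in that Dox replicate 3 alone was far above the rest. Its log2 difference of 0.63 (SE 0.62, adjusted p = 0.733 by limma) turned to -0.24 without that array. S100A10, part of a cell-surface plasminogen receptor, differed by -0.55 (SE 0.34), and by -0.17 without Dox replicate 2. SERPINE2, a urokinase and thrombin inhibitor, differed by -0.32 (SE 0.43), and by 0.09 without PBS replicate 1, -0.67 without Dox replicate 3, -0.63 without PBS replicate 2 and -0.05 without Dox replicate 1. The smooth muscle gene CNN1, chosen after its values were seen, had the same shape, with 190.8, 89.5 and 131.6 in PBS and 76.8, 73.9 and 1378.5 in Dox. TAGLN, another smooth muscle gene chosen after its values were seen, was also highest on Dox replicate 3, with 191.3, 144.9 and 119.9 in PBS and 110.3, 198.4 and 268.0 in Dox. RGS5, the pericyte gene with the highest mean signal of the list, read 1612, 749.5 and 968.3 in PBS and 857.6, 756.4 and 463.0 in Dox. The summed signal of the 5 smooth muscle and pericyte markers measured was 4050, 2332 and 2324 in PBS and 2180, 2435 and 3410 in Dox, highest on PBS replicate 1 and next on Dox replicate 3. Of the 3410 on Dox replicate 3, CNN1 alone gave 1378.5. The remaining markers, ACTA2 and PDGFRB, read 703.2 and 597.6 on Dox replicate 3, below their 1415 and 640.4 on PBS replicate 1. The median log2 difference of the 5 was 0.02. The part of smooth muscle content in the readings of Dox replicate 3 was not tested.

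Of 10 other protease inhibitors 7 were measured, with a median of -0.08 and 0 past those limits. That median is the value of PI3, which lay within the Tag range on all 6 arrays. Over the 5 genes within that range on fewer than 4 arrays the median was -0.065. Lower at the unadjusted limits were 2 without Dox replicate 1, beside 7.19% of all probe sets. These were SLPI and TIMP4, and TIMP4 is too dim to be read, as given below. Without PBS replicate 3 or without Dox replicate 3 the count was 1, beside 3.12% in each case. The median of the 7 also moved with single arrays. It was -0.80 without Dox replicate 1 and -0.60, again the value of PI3, without PBS replicate 1. It was -0.52 without Dox replicate 2 and -0.17 without PBS replicate 2. TFPI2, a matrix-bound serine protease inhibitor, read 83.5, 95.1 and 74.5 in PBS and 51.9, 55.9 and 41.4 in Dox. The groups did not overlap, and the log2 difference was -0.77 with an SE of 0.25 and an adjusted p of 0.521 (limma). SLPI, which inhibits neutrophil elastase, differed by -1.0 (SE 0.44, adjusted p = 0.523 by limma) with overlapping groups, and by -0.52 without Dox replicate 2. TIMP4, the TIMP best known from the heart, read 3.5, 5.5 and 3.6 in PBS and 3.4, 1.9 and 0.2 in Dox at its brighter probe set. Of its 6 values there 5 lay within the Tag range, as did all 6 at its other probe set, so no difference is read.

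Of 14 activators and other matrix proteases 8 were measured, with a median of -0.43, and 0 were higher and 2 lower in Dox at the unadjusted limits, beside 2.00% and 3.65% of all probe sets. Those were HTRA1, a secreted serine protease that cuts fibronectin, with 856.0, 483.1 and 665.5 in PBS and 449.6, 283.3 and 199.9 in Dox, and FAP, a protease on activated fibroblasts, with 222.3, 143.8 and 158.6 in PBS and 121.6, 79.0 and 40.0 in Dox. All Dox arrays were below all PBS arrays for each of them. The log2 differences of HTRA1 and FAP were -1.14 (SE 0.32) and -1.24 (SE 0.40), each with an adjusted p of 0.521 (limma). Another HTRA1 probe set, within the Tag range on 1 array, differed by -0.26 (SE 0.47). The count of 2 became 0 without Dox replicate 3, where the 2 genes differed by -0.87 and -0.81, and 0 without PBS replicate 1. At the same limits 3.12% and 1.85% of all probe sets were lower there. The lysosomal protease CTSB went the other way, by 0.46 (SE 0.19, adjusted p = 0.521 by limma), with no overlap, and by 0.30 without Dox replicate 3. BSG, the surface protein that induces metalloproteinases in neighbouring cells, differed by -0.06 (SE 0.18, adjusted p = 0.925 by limma). FURIN, the convertase that activates MMP14, and the other genes of these lists without a probe set of their own name were not measured here.

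The substrates of these enzymes had log2 differences mostly below 0. Of 22 matrix protein genes 18 were measured, and 17 had log2 differences below 0, beside 3786 of the 6765 named genes. The median was -0.68 (17 below 0 and a median of -0.60 after quantile normalization). At the unadjusted limits 4 were lower, beside 3.65% of all probe sets, and 0 higher, and 7 had Dox arrays wholly below PBS arrays, beside 10.1%. FN1, fibronectin, read 1485.8, 553.0 and 647.2 in PBS and 608.9, 240.6 and 263.0 in Dox. FBN1, the microfibril protein fibrillin, read 1630.9, 763.3 and 1050.3 in PBS and 728.4, 352.8 and 309.2 in Dox. In FBN1 every Dox array was below every PBS array, whereas in FN1 Dox replicate 1 lay above PBS replicate 2. Another FN1 probe set, above the Tag range on every array, differed by -0.55 (SE 0.58) with overlapping groups. The other FBN1 probe set differed by -1.90 (SE 0.42).

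The 4 that passed were FN1, FBN1, periostin (POSTN) and lumican (LUM), with log2 differences of -1.26 (SE 0.45), -1.35 (SE 0.37), -2.34 (SE 0.84) and -1.11 (SE 0.46), all with an adjusted p of 0.521 (limma). The proteoglycan decorin (DCN) and the collagen COL6A3 differed by -0.91 (SE 0.24) and -0.96 (SE 0.27) with no overlap. With 1 array left out the count of 4 moved, and so did the share of all probe sets lower by that rule. The count was 1 without PBS replicate 1 (1.85% of all probe sets) or Dox replicate 2 (3.26%). It was 7 without Dox replicate 1 (7.19%), 6 without PBS replicate 2 (2.96%) and 2 without Dox replicate 3 (3.12%). Without Dox replicate 3 POSTN differed by -1.32 and LUM by -0.61, and without PBS replicate 1 FN1 differed by -0.82. Of 8 fibroblast markers 5 were measured, and 2 of them, FAP and LUM, were lower at the unadjusted limits, beside 3.65% of all probe sets. The count was 0 without PBS replicate 1 (1.85% of all probe sets) or Dox replicate 3 (3.12%). It was 1 without PBS replicate 3 (3.12%) or Dox replicate 2 (3.26%), and 3 without Dox replicate 1 (7.19%). The 5 differences had a median of -0.91, and their summed signal was 3178, 2419 and 2832 in PBS and 2199, 1437 and 1033 in Dox. The lists share DCN, LUM and COL3A1, and FAP stands in the fibroblast list and the protease list, so they are not separate evidence. No marker of the fibroblast list lay within the Tag range on 4 or more arrays. Of 6 endothelial markers measured 5 had differences below 0, with a median of -0.61 and 0 past the unadjusted limits, and their summed signal was 2003, 1369 and 1330 in PBS and 1278, 1247 and 1145 in Dox. PECAM1, with the highest mean signal of that list, read 797.2, 352.5 and 336.4 in PBS and 361.4, 373.3 and 522.3 in Dox. Of the 10 cardiomyocyte markers 9 had differences above 0, with a median of 0.30, but after quantile normalization 2 did, with a median of -0.04. The part of fibroblast, endothelial or cardiomyocyte content in the substrate or protease values was not tested. In the same arrays 8 of the 9 member genes had differences above 0 at their brightest probe sets, and TIMP2 had one of -0.31. These 8 include MMP1 and MMP9, which lay within the Tag range on 4 or more arrays. The intervals of the 7 genes above the Tag range on every array held 0, and MMP14 and TIMP3 turned sign with 1 array left out.

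**Figure D5:**
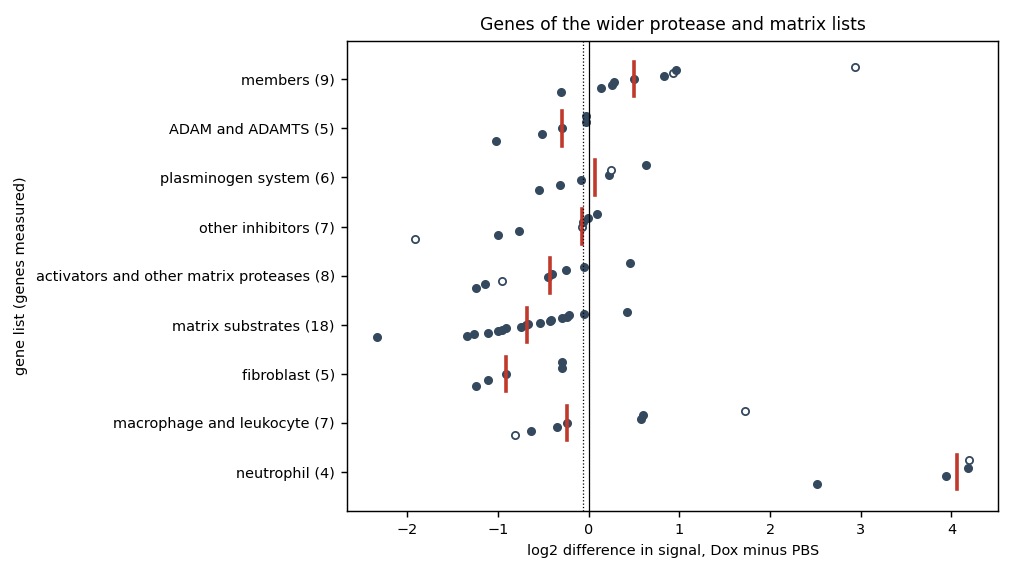
Log2 difference in signal, Dox minus PBS, of each measured gene at its brightest probe set, by list, with the list median as a red bar, 0 as a solid line and the median over all named genes as a dotted line. Open points lie within the Tag range on 4 or more arrays. The protease and inhibitor genes have a median of 0.50, the matrix substrates one of -0.68 and the neutrophil markers one of 4.06. Without open points the median is 0.28 for 7 protease and inhibitor genes and 3.94 for 3 neutrophil markers.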

How the data were processed

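LV RNA of 6 piglets was hybridised to 6 Affymetrix Porcine Genome Arrays. The deposited values are intensities, MAS5 signals on a linear scale that the authors computed with GCOS 1.4. After trimming 2% at each end, every array had a mean of 100.03 to 100.04. MAS5 subtracts mismatch signal, which makes dim values noisy. Scanner files were not used here, so background and scaling stay as the authors made them, and the number of arrays limits the precision.

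Groups and replicate numbers came from the sample labels. A signal of 0 was raised to 0.1 and log2 was taken. In R 4.3.3, limma 3.58.1 (lmFit, eBayes with an intensity trend) was fitted over all 6 arrays with no covariate or filter, and p-values were adjusted by Benjamini-Hochberg over 23999 probe sets, after 124 array controls were left out. The fit was tested on simulated data. Genes were named from the platform annotation, in which 10069 probe sets have 1 symbol, 198 have several and 13732 have none. Figures were drawn in Python 3.11.15.

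The members and lists were chosen with earlier results of these data known. Every member is named. Of each wider list, the 3 genes with the smallest unadjusted p are named, with those at p up to 0.05 and a fold of 2 or more, and TIMP4 and BSG for their known roles. Of the marker lists, the brightest gene and those within the Tag range are named for the lists described. Alternatives covered normalization, an offset, dim probe sets, the eBayes trend, array weights, the methods' t-test, a replicate block and each array left out. Tag signals as a floor, list counts with an array left out and other probe sets in the ratios were added after seeing the data.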

Additional observations from a re-analysis of the deposited data

How the results depend on the processing

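No member was called under any alternative run, and of 142 alternatives for single member genes 5 turned the sign. These were MMP14 without Dox replicate 3 (range with 1 array left out -0.0040 to 0.31), TIMP3 without PBS replicate 2 (-0.05) and without Dox replicate 3 (range -0.12 to 0.65), TIMP2 as the mean of its probe sets (0.0069), and MMP1 with signals raised to the Tag level (-0.036). Quantile and loess normalization kept the sign of all 9 genes and moved MMP14 to 0.37 and 0.36 and TIMP3 to 0.53 and 0.50. The lowest adjusted p over the alternatives was 0.176 for MMP9. The ratio of MMP14 to TIMP2 turned to -0.19 with the other TIMP2 probe set, and the other ratio alternatives kept their sign. The 1 member past an unadjusted p of 0.05 with a fold of 2, MMP9, was lost with an offset of 16 (0) and with dim probe sets left out (0). With 1 array left out the count was 1 to 3, the 3 being MMP9, TIMP1 and ADAMTS1 without Dox replicate 1, where 3.24% of all probe sets were higher by that rule. Over the array, that rule gave 1356 probe sets, 295 with the offset, 531 without dim probe sets, 2067 with array weights, 711 with the methods' t-test, and 792 to 2503 with 1 array left out (792 without PBS replicate 1, 2503 without Dox replicate 1). Calls at the adjusted threshold were 0 of 23999 in the fit over all arrays, with 2290 at an unadjusted p of at most 0.05, and 0 to 14 with 1 array left out, the 14 without Dox replicate 1. Replicate numbers are only names here: same-numbered arrays had correlations of deviations of -0.006, 0.024 and -0.055. A replicate block left the members' differences unchanged in size, gave 0 calls over the array and 1405 probe sets at the unadjusted rule.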
